A study of Mus musculus with 8 samples.

Results

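The genes described here are 10 members of the TGF-beta and activin pathway in regenerating mouse liver: the ligand genes Tgfb1, Tgfb2, Tgfb3, Inhba, Inhbc and Inhbe, the receptor genes Tgfbr1 and Tgfbr2, and the inhibitor genes Fst and Smad7. They were picked by name as members of one signalling pathway, and all 10 were found among the 34465 genes in the table of gene values. All 10 also passed the filter for testing, which asked for a mean signal of 1 or more. TGF-betas and activins are secreted dimers that bind pairs of type II and type I serine/threonine kinase receptors, which phosphorylate SMAD2 and SMAD3, and these enter the nucleus with SMAD4. In liver both ligand families restrain hepatocyte proliferation, and TGF-beta is also the main fibrogenic signal for hepatic stellate cells. Follistatin, the product of Fst, binds activins outside the cell, and SMAD7 blocks the receptors from within.

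RNA from whole liver was sequenced in 8 libraries, 2 per group. The groups were b-PDGFR fl/fl, GFAP Cre +/- livers 72 h after partial hepatectomy (Cre-positive hepatectomy), b-PDGFR fl/fl, GFAP Cre -/- livers 72 h after partial hepatectomy (Cre-negative hepatectomy), and sham-operated livers of both genotypes (Cre-positive sham and Cre-negative sham). All mice, controls included, carried the floxed alleles of the platelet-derived growth factor receptor beta gene Pdgfrb, were of the strain 129S4/SvJae/FVB and were 3 months old. The Cre recombinase was driven by the GFAP promoter, which is meant to place the deletion in stellate cells, a minority of the liver. The cells in which deletion took place were not checked here. The labels speak of duplicates and do not say that each library came from its own animal, so the p-values measure only the spread between these samples, which may be technical.

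Gene signal summed to between 8617664 and 11583777 per library, and the sequencing depth behind it is unknown. Hepatocyte markers marked the tissue as liver, with summed signals of at least 606000 in every library, although Alb, the albumin gene, was listed at 0 in 7 libraries and Trf, the transferrin gene, in 1. Pdgfrb itself had signals of 63.1 and 99.9 in Cre-positive hepatectomy livers, 123 and 70.5 in Cre-negative hepatectomy livers, 59.4 and 46.0 in Cre-positive sham livers and 49.8 and 63.3 in Cre-negative sham livers, and the genotypes overlapped in both operations. Whole liver holds other Pdgfrb-expressing cells, and the exons removed are not given in the sources used here, so these values do not check the deletion. The 8 proliferation markers summed to between 2080 and 4080 in Cre-positive hepatectomy livers, 1390 and 2880 in Cre-negative hepatectomy livers, 110 and 124 in Cre-positive sham livers and 109 and 137 in Cre-negative sham livers. Cre-positive hepatectomy replicate 2 stood apart by GC content: the 928 tested genes below 40% GC lay a median of -1.49 log2 units from the sham mean in that library, and the 3497 genes with at least 55% GC lay 0.66 units above it. The Cre-negative hepatectomy libraries also lay higher at high GC, by 0.61 in replicate 1 and 0.40 in replicate 2 for the genes with at least 55% GC, but by -0.03 and -0.04 for those below 40%. In Cre-positive hepatectomy replicate 1 the values were -0.11 at high and -0.06 at low GC, so the GC shifts differ between the groups compared.

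The sequences shown first are the promoters of Inhbe and Inhbc, the member genes with the smallest p-values after hepatectomy, which are neighbours on mouse chromosome 10 with 0 protein-coding genes between them in the GRCm38.p6 annotation of RefSeq. Each runs from 250 bases before to 50 bases after the annotated start, on the minus strand of GRCm38.p6 (Inhbe at chr10:127351799-127352098 and Inhbc at chr10:127370499-127370798), read 5′ to 3′ in the direction of the gene. Capitals mark the SMAD-binding letters CAGAC on either strand.
Inhbe: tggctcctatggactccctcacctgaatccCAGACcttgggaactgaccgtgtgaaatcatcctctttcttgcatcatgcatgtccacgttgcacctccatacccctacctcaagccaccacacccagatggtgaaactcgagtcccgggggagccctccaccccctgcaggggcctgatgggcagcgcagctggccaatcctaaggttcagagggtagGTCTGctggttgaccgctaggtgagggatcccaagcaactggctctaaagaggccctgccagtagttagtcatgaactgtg
Inhbc: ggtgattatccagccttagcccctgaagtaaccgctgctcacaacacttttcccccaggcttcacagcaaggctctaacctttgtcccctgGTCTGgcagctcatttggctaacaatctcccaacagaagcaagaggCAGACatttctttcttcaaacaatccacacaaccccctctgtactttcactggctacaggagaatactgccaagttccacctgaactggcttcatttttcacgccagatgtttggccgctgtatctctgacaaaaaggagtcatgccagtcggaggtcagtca
Both promoters held 2 matches to CAGAC, as did 1 of the other members with an entry, Tgfb2. These letters are common: 49.6% of 32851 RefSeq promoters of the same length held at least 1 match on either strand. The letters TGATGNAA, a motif of C/EBP and ATF factors, occurred once in the Inhbe promoter, 181 bases before the start as counted to the first base of the match, and in 3.97% of all promoters. The letters TATAAA were in neither, and in 13.6% of all promoters. A match describes letters and shows no binding. Promoter entries were present for 7 of the 10 genes, with none for Fst, Tgfb3 or Smad7.

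Across the 10 genes, no change with partial hepatectomy passed the test. Inhbe came nearest, with higher signal after hepatectomy in both genotypes, and Inhbc had its highest signals in Cre-positive hepatectomy livers. Tgfbr1 had the most negative fold change, which rested mainly on 1 library. Averaged over both genotypes, 0 of 10 genes passed an adjusted p of 0.05 in limma, against 4.49% of the 16443 genes tested. At an unadjusted p under 0.05 there were 2 of 10, Inhbe and Inhbc, against a background of 23.8%. The median log2 fold change of the 10 was 0.37, with 8 positive, against a median of 0.12 over all genes. The number positive was 5 with quantile normalization, and 7 with each library centred within GC classes. The share of positive genes over the whole table was not counted. In whole liver, a change in the number of cells that express a gene and a change in RNA per cell cannot be told apart.

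**Figure D1:**
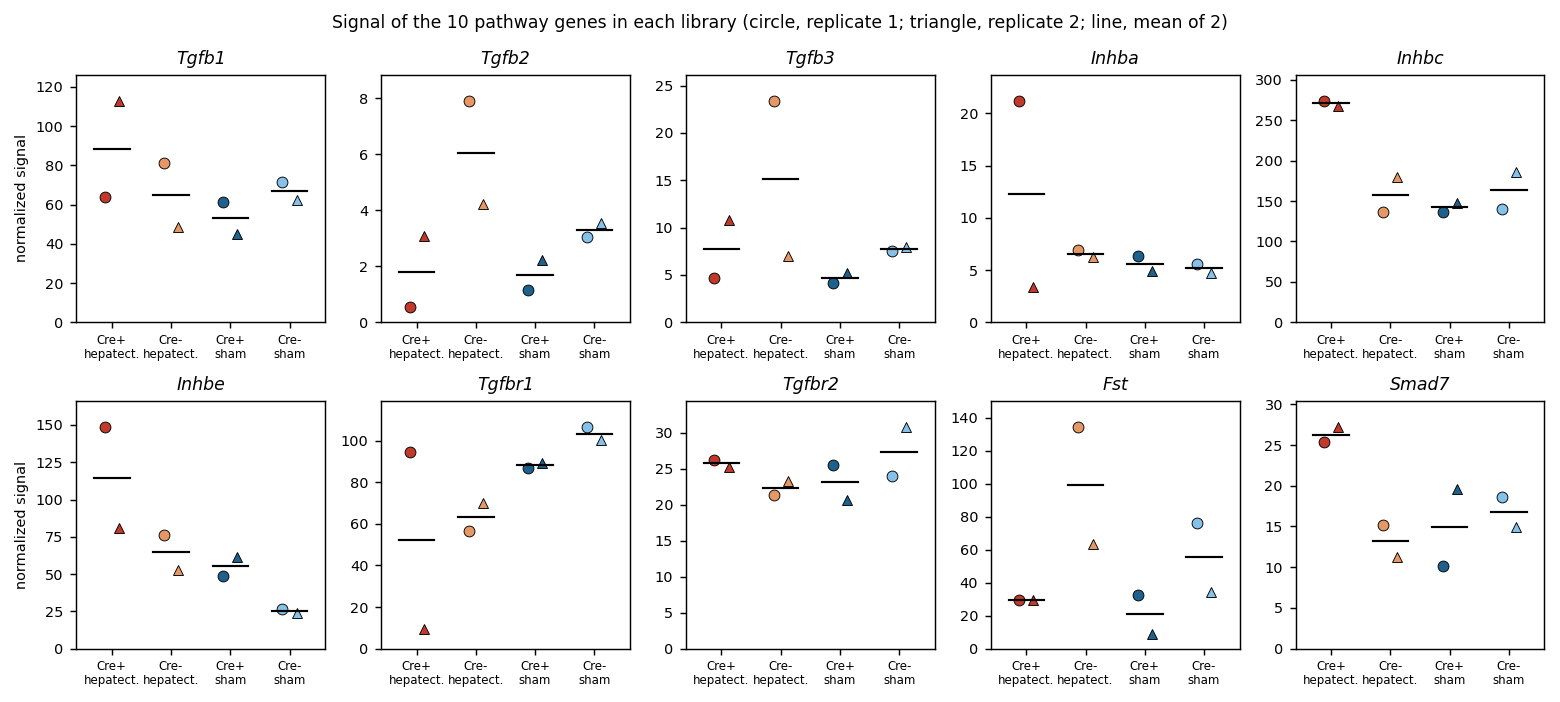
Signal of the 10 pathway genes in each of the 8 libraries, 1 panel per gene with a linear axis from 0. Circles are replicate 1, triangles replicate 2 and lines group means, in the order Cre-positive hepatectomy, Cre-negative hepatectomy, Cre-positive sham, Cre-negative sham. Inhbe is the gene whose hepatectomy points lie above its sham points in both genotypes, and Tgfbr1 has a single low point at 9.63.

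Inhbe encodes the inhibin beta E subunit, which is made mainly by hepatocytes and forms activin E. Its signal was 148 and 81.0 in Cre-positive hepatectomy livers, 76.5 and 52.5 in Cre-negative hepatectomy livers, 48.8 and 61.6 in Cre-positive sham livers and 26.7 and 23.5 in Cre-negative sham livers. Within each genotype both hepatectomy libraries lay above both sham libraries. Inhbe was the 1 gene of the 10 with that pattern, which 14.0% of all tested genes also showed. Group means were 115 ± 47.6 in Cre-positive hepatectomy, 64.5 ± 17 in Cre-negative hepatectomy, 55.2 ± 8.99 in Cre-positive sham and 25.1 ± 2.24 in Cre-negative sham (SD, n = 2 each). The 4 hepatectomy libraries averaged 2.23 times the 4 sham libraries. On the log2(signal + 1) scale the averaged fold change was 1.15 (SE 0.269, 95% interval 0.515 to 1.78), with an unadjusted p of 0.00346 and a limma adjusted p of 0.0627. The call depended on single libraries. Inhbe passed only in the 2 fits without a Cre-positive hepatectomy library. Both of these fits also called more genes over the whole table, as given below. The fold change was 0.93 without replicate 1 of that group and 1.36 without replicate 2. It lay between these values when any other library was left out.

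Inhbc encodes the beta C subunit, also made mainly by hepatocytes. Signals were 274 and 268 in Cre-positive hepatectomy livers, 137 and 179 in Cre-negative hepatectomy livers, 136 and 148 in Cre-positive sham livers and 141 and 186 in Cre-negative sham livers. The Cre-positive hepatectomy libraries were the highest of the 8, and the other 3 groups overlapped. The share of all tested genes with that pattern was not counted. The log2 fold change with hepatectomy was 0.93 in Cre-positive livers (SE 0.262, limma adjusted p = 0.193) and -0.05 in Cre-negative livers (SE 0.262, limma adjusted p = 0.94). Averaged over genotypes it was 0.44 (limma adjusted p = 0.205).

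Inhba encodes the beta A subunit of activin A, the best studied activin and an inhibitor of hepatocyte growth. Signals were 21.2 and 3.42 in Cre-positive hepatectomy livers, 6.92 and 6.23 in Cre-negative hepatectomy livers, 6.31 and 4.91 in Cre-positive sham livers and 5.59 and 4.71 in Cre-negative sham livers. The highest and the lowest library of the 8 were the replicates of Cre-positive hepatectomy. The averaged log2 fold change was 0.45 (SE 0.5, limma adjusted p = 0.592), and it was 1.03 without Cre-positive hepatectomy replicate 2 and -0.13 without replicate 1 of that group.

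Tgfb1 encodes the most abundant TGF-beta of injured liver, made mainly by non-parenchymal cells. Its signals were 63.7 and 113 in Cre-positive hepatectomy livers, 81.1 and 48.4 in Cre-negative hepatectomy livers, 61.1 and 44.8 in Cre-positive sham livers and 71.7 and 62.3 in Cre-negative sham livers. In Cre-positive livers both hepatectomy libraries lay above both sham libraries, and in Cre-negative livers the operations overlapped. The averaged log2 fold change was 0.30 (SE 0.283, limma adjusted p = 0.527).

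Tgfb2 and Tgfb3, whose products signal through the same receptors as TGF-beta 1, varied between replicates. Tgfb2 had signals of 0.537 and 3.07 in Cre-positive hepatectomy livers, 7.90 and 4.21 in Cre-negative hepatectomy livers, 1.17 and 2.22 in Cre-positive sham livers and 3.03 and 3.55 in Cre-negative sham livers. Both Cre-negative hepatectomy libraries were above the 6 others, a pattern whose share among all tested genes was not counted. Tgfb3 had signals of 4.67 and 10.8 in Cre-positive hepatectomy livers, 23.4 and 6.97 in Cre-negative hepatectomy livers, 4.19 and 5.23 in Cre-positive sham livers and 7.49 and 7.92 in Cre-negative sham livers. The operations overlapped in both genotypes, and the highest value was 1 Cre-negative hepatectomy library. Averaged log2 fold changes were 0.30 for Tgfb2 (SE 0.408, limma adjusted p = 0.668) and 0.60 for Tgfb3 (SE 0.431, limma adjusted p = 0.409), the Tgfb3 value lying between 0.20 and 1.0 with 1 library left out.

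**Figure D2:**
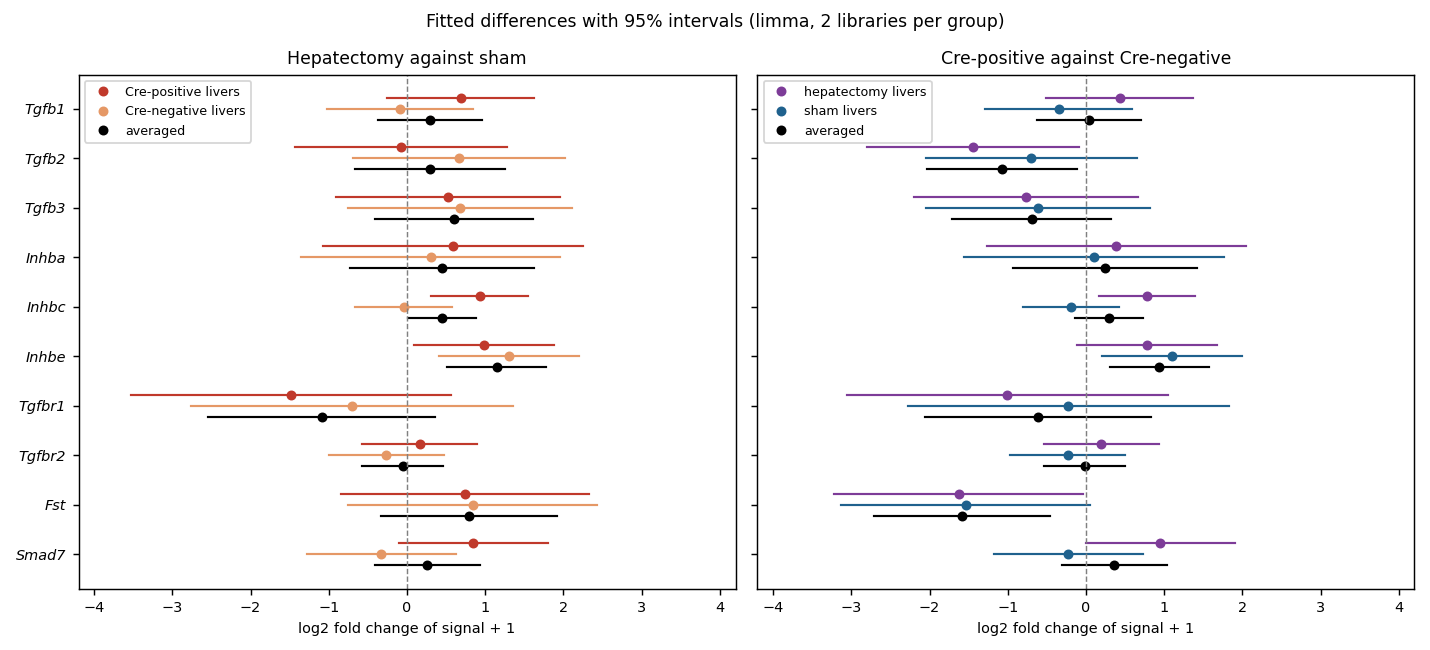
Log2 fold changes of signal + 1 for the 10 genes with 95% intervals from limma, on the left for hepatectomy against sham in Cre-positive livers, in Cre-negative livers and averaged, and on the right for Cre-positive against Cre-negative in hepatectomy livers, in sham livers and averaged. The averaged hepatectomy interval of Inhbe, 0.515 to 1.78, lies above 0, and that of Tgfbr1 runs over a wide range, -2.54 to 0.356.

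Tgfbr1 encodes the type I receptor kinase ALK5, which TGF-beta uses to phosphorylate SMAD2 and SMAD3. Signals were 94.9 and 9.63 in Cre-positive hepatectomy livers, 56.7 and 70.1 in Cre-negative hepatectomy livers, 87.1 and 89.5 in Cre-positive sham livers and 107 and 100.2 in Cre-negative sham livers. In Cre-negative livers both hepatectomy libraries were below both sham libraries, and in Cre-positive livers replicate 1 lay above the sham libraries and replicate 2 far below them. The averaged log2 fold change was -1.09 (SE 0.617, limma adjusted p = 0.312). It was -0.30 without Cre-positive hepatectomy replicate 2 and -1.89 without Cre-positive hepatectomy replicate 1. In each of these fits the remaining library of the group was assumed to vary like the other groups. In Cre-positive livers alone the fold change was -1.48 (limma adjusted p = 0.483), -3.07 without hepatectomy replicate 1 and 0.10 without hepatectomy replicate 2.

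The low Tgfbr1 value was in Cre-positive hepatectomy replicate 2, the library in which genes of low GC content were lowest. The longest transcript of Tgfbr1 has 41.0% GC, in the class of 40 to 45% that held 3060 tested genes. In Cre-positive hepatectomy replicate 2 that class had a median of -0.83 against the sham mean and Tgfbr1 had -3.18, and 1.93% of the class was at or below Tgfbr1. In the other hepatectomy libraries Tgfbr1 had -0.01 in Cre-positive replicate 1, -0.74 in Cre-negative replicate 1 and -0.44 in Cre-negative replicate 2. With each library centred within GC classes, a setting chosen after seeing the data, the averaged log2 fold change was -0.88 for Tgfbr1 (limma adjusted p = 0.258) and 0.92 for Inhbe (limma adjusted p = 0.124). The part of GC content in these values was not tested further.

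**Figure D3:**
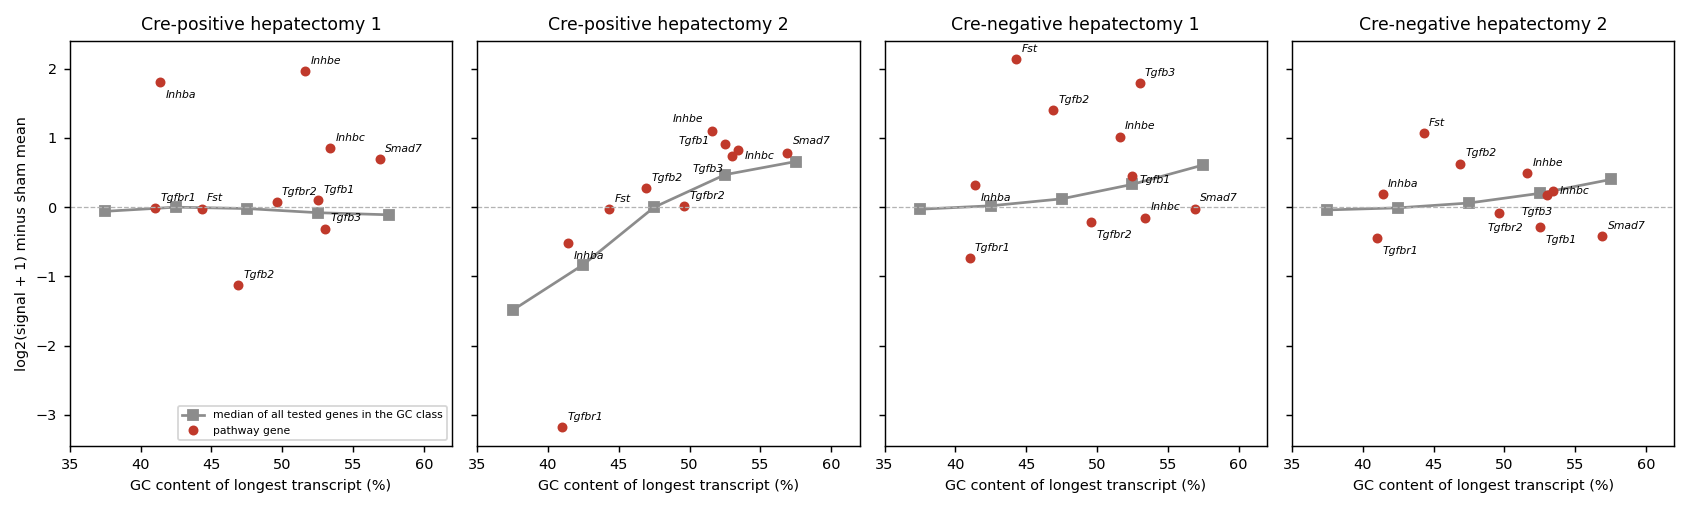
Deviation of log2(signal + 1) from the mean of the 4 sham libraries against the GC content of the longest transcript in percent, 1 panel per hepatectomy library. Points are the 10 genes and squares joined by a line are medians of all tested genes in 5 GC classes; the line climbs from -1.49 to 0.66 in Cre-positive replicate 2, where Tgfbr1 sits at -3.18.

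Tgfbr2 encodes the type II receptor that binds TGF-beta first. Its signals were 26.2 and 25.3 in Cre-positive hepatectomy livers, 21.4 and 23.3 in Cre-negative hepatectomy livers, 25.5 and 20.7 in Cre-positive sham livers and 23.9 and 30.7 in Cre-negative sham livers. All libraries lay between 20.7 and 30.7, the narrowest relative range of the 10 genes. The averaged log2 fold change was -0.06 (95% interval -0.575 to 0.465, limma adjusted p = 0.891).

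Fst, the follistatin gene, had signals of 29.3 and 29.2 in Cre-positive hepatectomy livers, 134 and 63.7 in Cre-negative hepatectomy livers, 32.7 and 8.66 in Cre-positive sham livers and 75.9 and 34.5 in Cre-negative sham livers. The operations overlapped within each genotype, and the averaged log2 fold change was 0.79 (SE 0.479, limma adjusted p = 0.34), between 0.34 and 1.24 with 1 library left out. Smad7, the inhibitory SMAD that is itself induced by TGF-beta, had signals of 25.3 and 27.2 in Cre-positive hepatectomy livers, 15.1 and 11.3 in Cre-negative hepatectomy livers, 10.1 and 19.6 in Cre-positive sham livers and 18.7 and 14.9 in Cre-negative sham livers. Both Cre-positive hepatectomy libraries were above the 6 others, and how many of all tested genes do the same was not counted. The averaged log2 fold change was 0.26 (SE 0.287, limma adjusted p = 0.59), with 0.85 in Cre-positive livers (limma adjusted p = 0.417) and -0.33 in Cre-negative livers (limma adjusted p = 0.663). The averaged Smad7 value lay between 0.04 and 0.48 with 1 library left out, and it was -0.13 after centring within GC classes.

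Within Cre-negative livers 0 of 10 genes passed the adjusted threshold for hepatectomy against sham, where 1.11% of all genes did. Inhbe alone had an unadjusted p under 0.05, against 21.3% of all genes. Its log2 fold change was 1.31 (SE 0.38, limma adjusted p = 0.135). It stayed at 1.31 without either Cre-positive hepatectomy library, as neither enters this contrast and leaving either out changes only the shared spread. Through that spread Inhbe moved past the adjusted threshold in both of these fits, as did many more genes over the whole table. The median of the 10 was 0.13, and that of all genes 0.21. Within Cre-positive livers 0 of 10 passed, against 0.943%, and 2 of 10, Inhbc and Inhbe, had an unadjusted p under 0.05, against 13.5%. The Inhbe fold change there was 0.99 (SE 0.38, limma adjusted p = 0.328). The median of the 10 was 0.64 with 8 positive, and that of all genes 0.02.

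Between genotypes, Inhbe was higher, and Fst and Tgfb2 lower, in both Cre-positive livers than in both Cre-negative livers of the same operation. None of these differences passed the adjusted threshold, and the other members were not separated in this way in both operations. Inhbe was the 1 gene of 10 above Cre-negative without overlap in both operations, against 1.60% of all genes. Fst and Tgfb2 were the 2 of 10 below it, against 4.94%. In sham livers 0 of 10 genes passed, against 0.00608% of all genes, and Inhbe alone had an unadjusted p under 0.05, where 0.888% of all genes did. Its log2 fold change there was 1.10 (SE 0.38, limma adjusted p = 1).

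In hepatectomy livers 0 of 10 genes passed for Cre-positive against Cre-negative, against 0.0182% of all genes. An unadjusted p under 0.05 was reached by 3 of 10, against 18.3%: Inhbc at 0.79 (SE 0.262, limma adjusted p = 0.208), Fst at -1.63 (SE 0.678, limma adjusted p = 0.265) and Tgfb2 at -1.45 (SE 0.577, limma adjusted p = 0.253). Smad7 followed at 0.95 (SE 0.406, limma adjusted p = 0.273). The median of the 10 was 0.29, against -0.23 over all genes. Tgfbr1 had -1.004 (limma adjusted p = 0.541). It had -2.59 without Cre-positive hepatectomy replicate 1 and 0.58 without replicate 2, fits that each leave a lone library in that group.

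Averaged over both operations, a contrast added after the data had been seen, 0 of 10 genes passed for genotype, against 0.0122% of all genes. At an unadjusted p under 0.05 there were 3 of 10, against 8.53%. Fst differed by -1.58 (SE 0.479, 95% interval -2.71 to -0.456, limma adjusted p = 0.505), Inhbe by 0.94 (SE 0.269, 95% interval 0.309 to 1.57, limma adjusted p = 0.494) and Tgfb2 by -1.07 (SE 0.408, limma adjusted p = 0.569). The range of Fst within Cre-negative groups was wide, with 134 against 63.7 and 75.9 against 34.5 between replicates. Tgfbr1 again rested on a single library, at -1.41 without Cre-positive hepatectomy replicate 1 and 0.18 without replicate 2. Each of these fits leaves a lone library in that group.

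The response to hepatectomy differed between the genotypes past the adjusted threshold for 0 of 10 genes, against 0.0122% of all genes. Inhbc alone had an unadjusted p under 0.05, against 8.09% of all genes, with a difference of 0.97 (SE 0.37, limma adjusted p = 0.591). Smad7 had the largest positive difference, 1.18 (SE 0.574, 95% interval -0.171 to 2.53, limma adjusted p = 0.655). Tgfbr1 had -0.78 with all libraries (limma adjusted p = 0.862). It had -2.37 without Cre-positive hepatectomy replicate 1 and 0.81 without replicate 2, with a lone library left in that group each time.

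Sums of marker lists for cells that could carry these transcripts differed between some groups and overlapped between others. The 10 stellate cell markers summed to between 1400 and 1950 in Cre-positive hepatectomy livers, 1490 and 1600 in Cre-negative hepatectomy livers, 2320 and 3170 in Cre-positive sham livers and 2790 and 2870 in Cre-negative sham livers, with every marker above 0 in every library. Their fold changes were mixed: averaged over genotypes 4 of 10 were positive with a median of -0.29, and at an unadjusted p under 0.05 there were 2 up and 3 down in limma. The 8 Kupffer cell and macrophage markers summed to between 4060 and 4270 in Cre-positive hepatectomy livers, 1710 and 2340 in Cre-negative hepatectomy livers, 2150 and 2310 in Cre-positive sham livers and 1510 and 2460 in Cre-negative sham livers. The highest macrophage sums were in the group that also had the highest Inhbc and Smad7 signals. Against Cre-negative hepatectomy livers, 7 of 10 hepatocyte and 7 of 8 endothelial markers also had positive fold changes in that group. Against Cre-positive sham livers, 5 of 10 hepatocyte and 3 of 8 endothelial markers did. The 10 hepatocyte markers summed to between 659000 and 1140000 in Cre-positive hepatectomy livers, 606000 and 815000 in Cre-negative hepatectomy livers, 729000 and 732000 in Cre-positive sham livers and 698000 and 706000 in Cre-negative sham livers. These sums depend strongly on 2 genes. Trf was listed at 0 in Cre-positive hepatectomy replicate 1 and at 699500 in replicate 2 of that group. Alb was listed at 227200 in Cre-negative hepatectomy replicate 1 and at 0 in every other library. The sums therefore do not rank the groups for the remaining markers. For genotype in hepatectomy livers 7 of the 10 hepatocyte markers were positive, with a median of 0.50 against -0.23 over all genes. The 7 cholangiocyte markers summed to between 605 and 1800 in Cre-positive hepatectomy livers, 578 and 803 in Cre-negative hepatectomy livers, 460 and 501 in Cre-positive sham livers and 530 and 560 in Cre-negative sham livers, and Cftr was listed at 0 in a library. Like Fst and Tgfb2, most cholangiocyte markers had lower values in Cre-positive than in Cre-negative livers. Averaged over operations their median was -1.13 against -0.13 over all genes, 2 of 7 were positive, and 3 were down and 0 up at an unadjusted p under 0.05 in limma. The 8 endothelial markers summed to between 2100 and 2810 in Cre-positive hepatectomy livers, 1270 and 2370 in Cre-negative hepatectomy livers, 2690 and 3530 in Cre-positive sham livers and 2690 and 3390 in Cre-negative sham livers. With hepatectomy averaged over genotypes 0 of the 8 were positive, with a median of -0.73 against 0.12 over all genes. In limma 2 of the 8 fell past the adjusted threshold, against 0.845% of all genes. For genotype in hepatectomy livers 7 of the 8 were positive, with a median of 0.75 against -0.23 over all genes. The part of cell composition in the values of the 10 genes was not tested.

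The table of isoforms held 25 isoforms of the 10 genes, of which 20 were tested, and 3 genes had 1 isoform. In limma 0 of the 20 passed the adjusted threshold for hepatectomy against sham averaged over genotypes, where 1.72% of 47375 isoforms did. At an unadjusted p under 0.05 there were 2, against 19.1%: Inhbe-201, the single Inhbe isoform, and Tgfbr1-004, a minor one. Tgfbr1-004 had signals of 1.85 and 0.127 in Cre-positive hepatectomy livers, 0.313 and 0.0447 in Cre-negative hepatectomy livers, 4.84 and 6.92 in Cre-positive sham livers and 4.19 and 6.05 in Cre-negative sham livers. All 4 hepatectomy libraries were below all 4 sham libraries, and the log2 fold change was -2.15 (SE 0.44, limma adjusted p = 0.0699). The share of all tested isoforms separated in this way was not counted. The hepatectomy values lay near the floor, and the fold change lay between -3.77 and -2.15 over the settings that kept all libraries. With a library left out it lay between -2.48 and -1.81. Without Cre-positive hepatectomy replicate 1 the fold change was -2.48 for Tgfbr1-004 and -1.72 for the main isoform Tgfbr1-001.

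Isoform shares also differed between replicates. Fst-201 made up 57.7% and 64.8% of Fst signal in Cre-positive hepatectomy livers, 91.2% and 78.9% in Cre-negative hepatectomy livers, 74.1% and 73.5% in Cre-positive sham livers and 73.2% and 81.1% in Cre-negative sham livers. The 2 Cre-positive hepatectomy libraries had the lowest shares of the 8. Tgfbr2-201 made up 61.2% and 98.3% of Tgfbr2 signal in Cre-positive hepatectomy livers, 7.9% and 97.5% in Cre-negative hepatectomy livers, 68.1% and 51.8% in Cre-positive sham livers and 64.5% and 40.6% in Cre-negative sham livers, while the Tgfbr2 gene value stayed between 20.7 and 30.7. Shares of isoforms assigned from short reads depend on how reads common to several isoforms are divided, and no test was run on them.

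**Figure D4:**
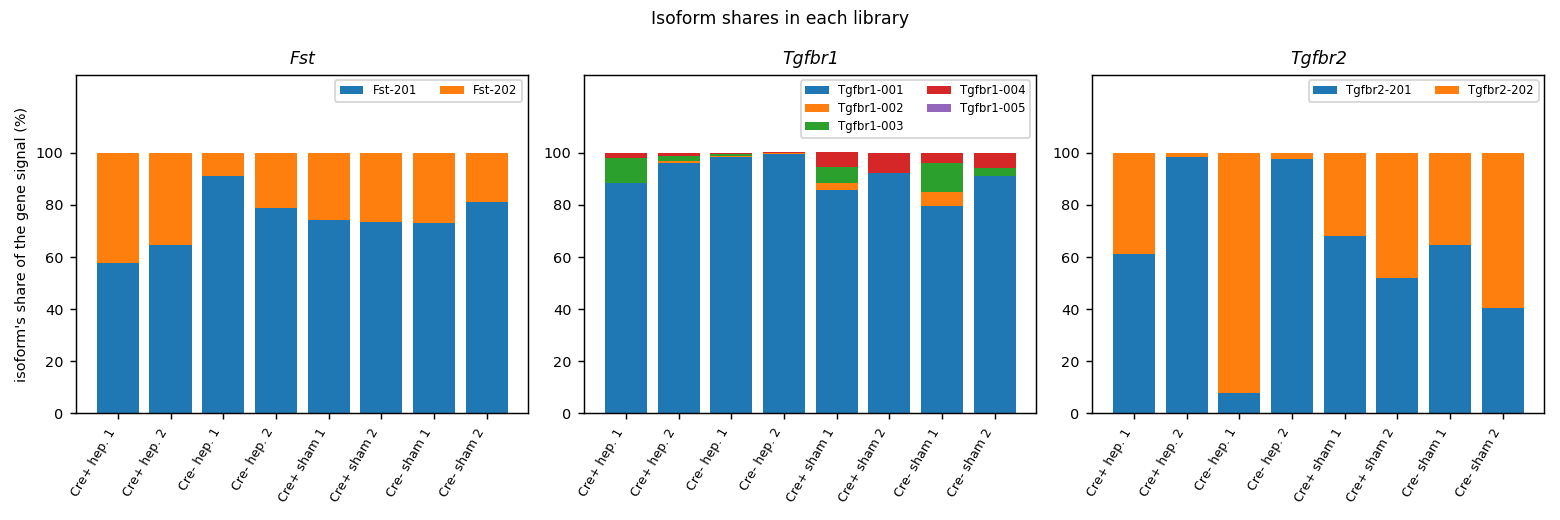
Share of each isoform in its gene's signal, in percent, for Fst, Tgfbr1 and Tgfbr2, in the 8 libraries ordered from Cre-positive hepatectomy to Cre-negative sham. Stacked bars add to 100%; Tgfbr2-201 ranges from 7.9% to 98.3% and Fst-201 from 57.7% to 91.2%.

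The other genes of the pathway were grouped by role and counted in the averaged hepatectomy contrast in limma. Of 12 tested ligands of the superfamily 0 passed and the median was -0.34. Gdf15, a stress-induced ligand, had the highest mean, with signals of 29.7 and 52.3 in Cre-positive hepatectomy livers, 172 and 85.1 in Cre-negative hepatectomy livers, 3.17 and 62.8 in Cre-positive sham livers and 18.9 and 22.5 in Cre-negative sham livers, and a fold change of 1.90 (limma adjusted p = 0.204, and 0.0405 without Cre-positive sham replicate 2). Over all tested genes 3.64% rose and 0.845% fell in this contrast. Genes past the threshold are named below because they passed it, so a lack of overlap in their values is no separate support. Of 13 proteins of latency and activation, 1 rose, against 3.64% of all genes: Fbn1, the gene of fibrillin-1, which anchors latent TGF-beta in the matrix. Fbn1 had signals of 94.8 and 102 in Cre-positive hepatectomy livers, 79.8 and 83.8 in Cre-negative hepatectomy livers, 48.5 and 46.7 in Cre-positive sham livers and 49.9 and 43.1 in Cre-negative sham livers, with no overlap between operations and a log2 fold change of 0.92 (SE 0.18, limma adjusted p = 0.0377). The median of that list was 0.01.

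Of 11 other receptors and co-receptors 1 fell, against 0.845% of all genes, and the median was -0.45. It was Tgfbr3, the gene of betaglycan, a co-receptor that presents TGF-beta 2 and binds inhibin. Tgfbr3 had signals of 29.7 and 32.0 in Cre-positive hepatectomy livers, 40.6 and 45.8 in Cre-negative hepatectomy livers, 72.9 and 75.0 in Cre-positive sham livers and 74.8 and 88.4 in Cre-negative sham livers, again with no overlap, and a log2 fold change of -1.07 (SE 0.189, limma adjusted p = 0.0284). Of 8 other antagonists 1 rose, against 3.64% of all genes, with a median of 0.31. Fstl1, a follistatin-like secreted glycoprotein, had a fold change of 0.95 (SE 0.195, limma adjusted p = 0.0423) and signals of 66.8 and 65.2 in Cre-positive hepatectomy livers, 85.6 and 67.1 in Cre-negative hepatectomy livers, 39.7 and 40.2 in Cre-positive sham livers and 34.7 and 30.6 in Cre-negative sham livers.

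Inside the cell, 0 of 7 other SMADs and 0 of 12 SMAD regulators passed, with medians of -0.26 and -0.54. Smad4, the shared partner SMAD, had signals of 218 and 218 in Cre-positive hepatectomy livers, 131 and 172 in Cre-negative hepatectomy livers, 203 and 199 in Cre-positive sham livers and 233 and 225 in Cre-negative sham livers (log2 fold change -0.24, limma adjusted p = 0.39). Usp9x, a deubiquitinase of SMAD4, had 1262 and 124 in Cre-positive hepatectomy livers, 785 and 814 in Cre-negative hepatectomy livers, 1262 and 1215 in Cre-positive sham livers and 1234 and 1251 in Cre-negative sham livers. Its low library was the same as that of Tgfbr1, and its log2 fold change was -1.14 (limma adjusted p = 0.308). It was -1.97 without Cre-positive hepatectomy replicate 1, which leaves a lone library in that group.

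Of 14 genes known as TGF-beta targets 2 rose and 0 fell, against 3.64% and 0.845% of all genes, with a median of 0.80 and 10 positive. Cdkn1a, the gene of the cell cycle inhibitor p21, had signals of 321 and 646 in Cre-positive hepatectomy livers, 225 and 493 in Cre-negative hepatectomy livers, 58.5 and 92.0 in Cre-positive sham livers and 106 and 64.0 in Cre-negative sham livers. Col1a1, a chain of type I collagen, had 482 and 1051 in Cre-positive hepatectomy livers, 317 and 358 in Cre-negative hepatectomy livers, 89.6 and 248 in Cre-positive sham livers and 68.8 and 61.6 in Cre-negative sham livers. In both genes every hepatectomy library of a genotype was above its sham libraries, as in 14.0% of all tested genes. The fold changes were 2.31 for Cdkn1a (SE 0.366, limma adjusted p = 0.0197) and 2.30 for Col1a1 (SE 0.375, limma adjusted p = 0.022). Both genes respond to other signals besides TGF-beta. Of 9 BMP targets 0 passed, with a median of -0.26, and Hamp, the hepcidin gene, had 31000 and 7376 in Cre-positive hepatectomy livers, 4396 and 327 in Cre-negative hepatectomy livers, 6497 and 12210 in Cre-positive sham livers and 16650 and 13680 in Cre-negative sham livers (log2 fold change -1.44, between -2.38 and -0.51 with 1 library left out, limma adjusted p = 0.317).

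These pathway calls were lost when single libraries were left out. Fbn1, Tgfbr3 and Fstl1 missed the threshold without any 1 of the 4 sham libraries or of the 2 Cre-negative hepatectomy libraries, where the highest limma adjusted p was 0.188 for Fbn1, 0.163 for Tgfbr3 and 0.2 for Fstl1. Cdkn1a missed it without any 1 of the 4 sham libraries or without Cre-negative hepatectomy replicate 2, with a highest limma adjusted p of 0.107. Col1a1 missed it without either Cre-negative sham library, without Cre-positive sham replicate 1 and without either Cre-negative hepatectomy library, with a highest limma adjusted p of 0.103. Under other settings the limma adjusted p of Fbn1 was 0.0619 with median-of-ratios scaling, 0.0779 with quantile normalization and 0.0604 with GC centring, and that of Fstl1 was 0.0668 with median-of-ratios scaling and 0.0858 with quantile normalization. With no filter on low values it was 0.0656 for Cdkn1a and 0.0698 for Col1a1, and Tgfbr3 passed under all these settings. The fold changes kept their sign in every fit with a library left out, between 0.87 and 0.97 for Fbn1, -1.13 and -1.01 for Tgfbr3, 0.86 and 1.04 for Fstl1, 2.03 and 2.59 for Cdkn1a and 1.94 and 2.66 for Col1a1. The number of genes called over the whole table was 738 with all libraries, between 134 and 419 without any 1 sham or Cre-negative hepatectomy library, 1013 without Cre-positive hepatectomy replicate 2 and 5369 without Cre-positive hepatectomy replicate 1.

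**Figure D5:**
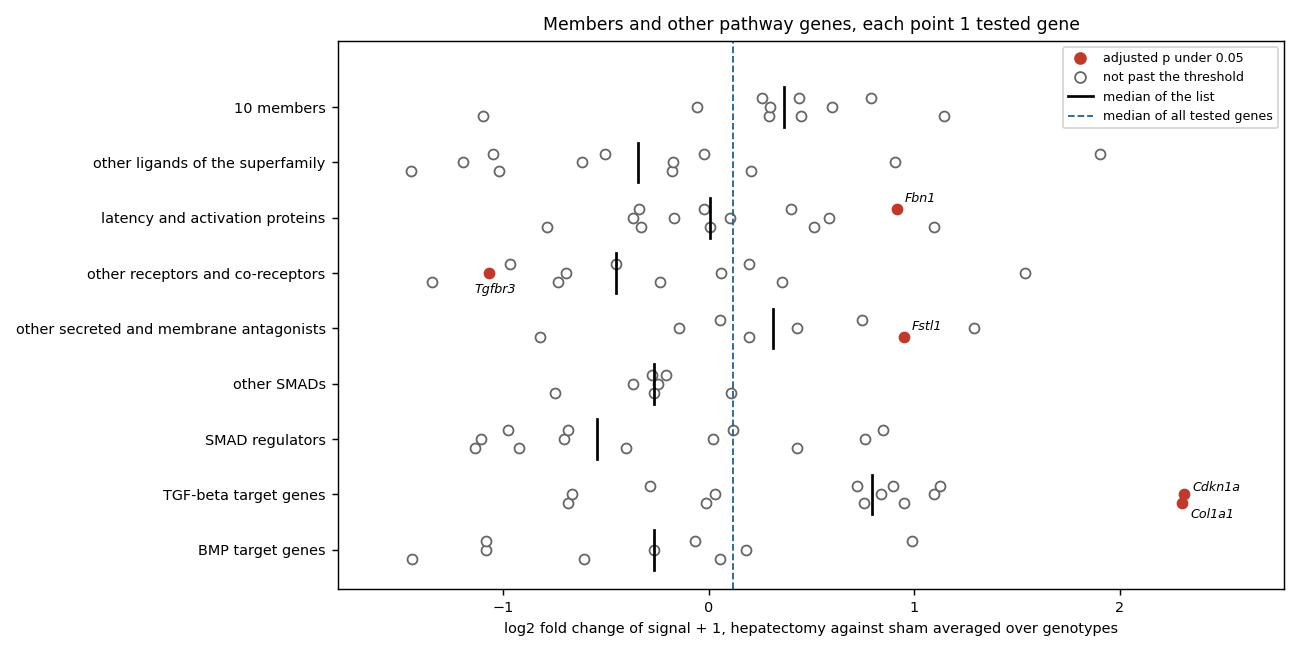
Log2 fold change of signal + 1 for hepatectomy against sham averaged over genotypes, 1 point per tested gene, for the 10 members and 8 lists of other pathway genes. Filled points passed an adjusted p of 0.05, the black bars are list medians and the dashed line is the median of all tested genes, 0.12; the filled points are Fbn1, Tgfbr3, Fstl1, Cdkn1a and Col1a1.

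The genes whose values over the 8 libraries lay nearest to those of Inhbe were Aen, H2-T10 and Ces2e, with root mean square differences of mean-centred log2(signal + 1) of 0.343, 0.356 and 0.386. This is a description over 8 libraries in 4 groups, among 16443 genes, and no test was made of it.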

How the data were processed

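Whole-liver RNA of 8 libraries in 4 groups was measured by sequencing on an Illumina platform, per the labels. The deposited tables hold a signal for each gene and each isoform, normalized by the authors in a way not given in the sources used here. Per the submitters' processing notes, TopHat, Cufflinks, mm9 and NCBIM37 were involved, with no versions. The depth is therefore unknown, no counting intervals are given, and levels of different genes were set side by side only to pick the gene of highest mean in a list. The tests had been set for expression values of unstated unit, and the same test was kept for signal.

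Genes (16443) and isoforms (47375) with a mean signal of at least 1 were tested on log2(signal + 1) in limma 3.58.1 (R 4.3.3), which understates changes of low genes. One model with 4 group means, an intensity trend and a shared spread was used (residual degrees of freedom 4, prior 3.25), with two-sided p-values adjusted by Benjamini-Hochberg over the whole table and a threshold of 0.05. The procedure was tested on simulated data. GC content was that of a gene's longest GENCODE mouse transcript in the reference used here, not the authors' annotation, and could be given for 96.6% of tested genes. The 10 genes and the lists were chosen with earlier results of these data known. One gene of the lists is not reported here and is in none of their counts. Beside the 10, the text names of each pathway list up to 3 genes past the threshold or else that of the highest mean, Pdgfrb, and the 3 genes nearest to Inhbe. Alb and Trf were named outside this rule, after their values were seen. Alternatives were another pseudocount, no filter, median-of-ratios and quantile scaling, no trend, only the groups compared, and leaving out each library. GC class centring and the averaged genotype contrast were chosen after seeing the data.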

Additional observations from a re-analysis of the deposited data

Results flagged for a closer look

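In Tgfbr2, Inhbc and Smad7 every library of 1 group lay on one side of the mean it was compared with, and every library of the other group on the opposite side. Tgfbr2 was higher in both Cre-positive than in both Cre-negative hepatectomy livers, and both Cre-positive sham livers lay below the mean of the Cre-negative sham livers. Its hepatectomy response was positive in Cre-positive and negative in Cre-negative livers. That difference was 0.43 on the log2 scale for both readings, with an adjusted p of 0.792 in limma. Inhbc differed in the genotype effect between the operations by 0.97, with a limma adjusted p of 0.591 (unadjusted p = 0.033). Smad7 differed in its hepatectomy response between the genotypes by 1.18, with a limma adjusted p of 0.655 (unadjusted p = 0.0781). None passed the adjusted threshold. How often such opposite sides occur among all tested genes was not counted. The pattern therefore does not set these genes apart from others.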

How the results depend on the processing

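No paired analysis was possible because the replicate numbers are in accession order and pair nothing. Over 7 other settings, 0 of 10 genes passed in any contrast; 532 single-gene values held their direction and side of the threshold, 7 calls of pathway genes were lost (Fbn1 under median-of-ratios scaling, quantile normalization and GC centring, Fstl1 under both scalings, and Cdkn1a and Col1a1 with no filter) and 15 signs turned. The counts of genes called moved as follows, and the cause was not tested. For hepatectomy in Cre-positive livers 155 became 7 with no filter, 103 with quantile normalization, 276 with GC centring and 0 with only the groups compared. For hepatectomy in Cre-negative livers 183 became 103 with no filter, 62 with median-of-ratios scaling, 79 with quantile normalization, 422 with GC centring and 63 with only the groups compared. Averaged over genotypes 738 became 405 with no filter, and 1104 with GC centring. For genotype in hepatectomy livers 3 became 22 with no filter, 7 with no trend and 0 with only the groups compared, and in sham livers 1 became 0 with no filter or GC centring. Averaged over operations 2 became 7 with no filter and 0 with no trend or GC centring, and for the difference of responses 2 became 1 with a pseudocount of 0.1 or no filter and 0 with GC centring. Signs turned under quantile normalization for hepatectomy in Cre-negative livers (Tgfb2 -0.137, Inhba -0.492), averaged over genotypes (Tgfb2 -0.136, Inhba -0.0738, Smad7 -0.0859) and for the difference of responses (Tgfb2 0.00162, Tgfb3 0.36, Fst 0.0194). Fst also turned there under median-of-ratios scaling (0.0414) and GC centring (0.253), and Smad7 averaged over genotypes under GC centring (-0.132). Tgfbr2 averaged over operations turned under median-of-ratios scaling (0.077), quantile normalization (0.233) and GC centring (0.0544), and isoform Tgfb2-203 with a pseudocount of 0.1 (-0.000733). Leaving out each library in turn gave genes called of 1 to 3459 for hepatectomy in Cre-positive livers, 0 to 1657 for hepatectomy in Cre-negative livers, 134 to 5369 for hepatectomy averaged over genotypes, 0 to 2142 for genotype in hepatectomy livers, 0 to 19 for genotype in sham livers, 0 to 913 for genotype averaged over operations and 0 to 732 for the difference of responses. Of the 10 genes it gave 0 to 1 for hepatectomy in Cre-positive livers, 0 to 1 for hepatectomy in Cre-negative livers, 0 to 2 for hepatectomy averaged over genotypes, 0 to 1 for genotype in hepatectomy livers, 0 to 0 for genotype in sham livers, 0 to 1 for genotype averaged over operations and 0 to 1 for the difference of responses. For hepatectomy in Cre-positive livers, signs turned for Fst (-0.158 to 1.64), Inhba (-0.571 to 1.76), Tgfb2 (-0.781 to 0.623), Tgfb3 (-0.00414 to 1.05) and Tgfbr1 (-3.07 to 0.103). For hepatectomy in Cre-negative livers, signs turned for Inhbc (-0.245 to 0.154), Tgfb1 (-0.458 to 0.276) and Tgfb3 (-0.127 to 1.49). For hepatectomy averaged over genotypes, signs turned for Inhba (-0.134 to 1.03), Tgfb2 (-0.056 to 0.646) and Tgfbr2 (-0.142 to 0.0322). For genotype in hepatectomy livers, signs turned for Inhba (-0.775 to 1.55), Tgfb3 (-1.58 to 0.0352) and Tgfbr1 (-2.59 to 0.583). For genotype in sham livers, signs turned for Inhba (-0.054 to 0.252), Inhbc (-0.386 to 0.0126) and Smad7 (-0.671 to 0.222). For genotype averaged over operations, signs turned for Inhba (-0.338 to 0.825), Tgfb1 (-0.163 to 0.245), Tgfbr1 (-1.41 to 0.179) and Tgfbr2 (-0.104 to 0.0706). For the difference of responses, signs turned for Fst (-0.996 to 0.807), Inhba (-0.875 to 1.45), Inhbe (-0.751 to 0.114), Tgfb3 (-0.962 to 0.65) and Tgfbr1 (-2.37 to 0.808). For isoforms, signs turned for Inhba-202 (-0.262 to 1.06), Smad7-001 (-0.16 to 0.442), Smad7-201 (-0.103 to 0.612), Tgfb1-003 (-0.279 to 0.0581), Tgfb2-203 (-0.14 to 0.614) and Tgfbr2-201 (-0.972 to 0.596). Isoforms called ranged from 0 to 2. The most extreme counts came without Cre-positive hepatectomy replicate 1, where the lone library left is assumed to vary like the other groups. With 2 libraries per group and 4 residual degrees of freedom, and with unknown depth, differences that missed the threshold are not shown to be absent.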
